A study of Homo sapiens with 15 samples.

Results

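The expression of 9 transcription factor (TF) genes of epithelial and squamous cells, EHF, ELF3, TFAP2A, TFAP2C, ZNF750, FOXE1, PITX1, BNC1 and PRDM1, was followed in HCC95 cells after knockdown of one of 4 master TFs. The genes were taken by symbol from a table of 61544 genes, and no threshold on their values was part of the rule. All 9 were found, and all 9 were among the 25108 genes that passed the filter on low counts. HCC95 is a cell line of lung squamous cell carcinoma (LUSC). The 15 poly(A) RNA-seq libraries came from cells that received a negative control siRNA (siNC1) or an siRNA against KLF5 (siKLF5b), TP63 (siTP63b), SOX2 (siSOX2b) or GRHL2 (siGRHL2a), with 3 libraries in each of the 5 groups. Every group is this 1 line with 1 siRNA label, and no label says that replicate libraries came from separate cultures, so the p-values measure the spread between these libraries, which may be technical.

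These factors act at different layers of a stratified epithelium. EHF and ELF3 are ETS-family activators found in epithelial cells. TFAP2A and TFAP2C belong to the AP-2 family, which acts in ectoderm and epidermis. ZNF750 and PRDM1 (BLIMP1) are regulators of late keratinocyte differentiation, ZNF750 downstream of p63. BNC1 (basonuclin) is a zinc-finger protein of basal keratinocytes, FOXE1 is a forkhead factor of thyroid and oral epithelium, and PITX1 is a homeodomain factor of the hindlimb and oral ectoderm.

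The libraries held between 15655495 and 34229063 counts. They fell into 2 sets by the naming of their columns, siNC1 with siKLF5b (6 libraries) and siTP63b, siSOX2b and siGRHL2a (9 libraries). Of the counts from 20 to 500, between 49.7% and 50.7% were even in the first set and between 66.1% and 69.0% in the second, and the first principal component, with 51% of the variance, separated the sets. For the second set against siNC1, set and knockdown cannot be told apart, and such levels are given without a test. The siRNA targets stood at 64.2% of the siNC1 level for KLF5, 53.3% for TP63, 12.2% for SOX2 and 67.7% for GRHL2 in their own knockdowns, of which only KLF5 was compared within a set. Within the second set GRHL2 stood at 91.2 CPM in siGRHL2a, close to the 100 CPM of siSOX2b and the 117 CPM of siTP63b, with log2FC values of 0.14 and 0.36 for those groups against siGRHL2a. SOX2 stood at 8.96 CPM in siSOX2b, 20.1 CPM in siGRHL2a and 29.5 CPM in siTP63b, beside 73.2 CPM in siNC1. Of 7 squamous markers KRT5 was by far the highest, at a mean of 8625 CPM (a count scaled to a common library total) in siNC1. The others stood at 258 CPM (PKP1), 239 CPM (SERPINB5), 116 CPM (DSG3), 74.5 CPM (KRT6A), 55.1 CPM (KRT14) and 22.3 CPM (S100A2) there. Of 18 markers of other cell types, between 5 and 8 had at most 3 counts in every library of a group, and without the widely expressed CD68 their summed level ran from 8.34 to 10.5 CPM in siNC1, 7.31 to 8.64 in siKLF5b, 12.2 to 14.7 in siTP63b, 18.6 to 21.8 in siSOX2b and 18.7 to 22.1 CPM in siGRHL2a; its part in the results was not tested.

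CPM here used the library total times its TMM factor. Per kilobase of annotated exon, the siNC1 level was 52.3 CPM for EHF, 28.3 for FOXE1 and 24.3 for BNC1, which stood well above the rest. TFAP2C followed at 9.92, PITX1 at 5.47, TFAP2A at 2.98, ELF3 at 2.89 and ZNF750 at 1.04, and PRDM1 came last at 0.362 CPM per kilobase of exon. The counts behave as counts over whole gene spans, since in all 1453 pairs of a gene inside another on the opposite strand, and in all 863 on the same strand, with at least 50 counts for the inner gene in each library, the outer gene had at least as many counts in every library. Per kilobase of gene span the order was led by FOXE1 (28.3 CPM), a gene whose span is all exon, ahead of EHF (8.21 CPM) and BNC1 (4.15 CPM), with PRDM1 again last at 0.0210 CPM.

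This counting has a direct bearing on several of the genes, as reads from a shared span were counted for both genes whatever their strand. EHF, TFAP2C and FOXE1 overlap no other gene of the table. ZNF750 lies wholly inside TBCD, which encodes a tubulin cofactor on the opposite strand, and BNC1 lies inside the long non-coding RNA ENSG00000259986. PRDM1 shares 55.4% of its span with ATG5, an autophagy gene, including 6573 of its 6750 exonic bases. ELF3 overlaps ELF3-AS1 and ENSG00000249007, TFAP2A overlaps TFAP2A-AS1 and TFAP2A-AS2, and PITX1 overlaps PITX1-AS1, which held 498% as many counts as PITX1. The part of these neighbours in the results was not tested, and values of those that hold a member or share many of its reads are given beside the results.

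KLF5 knockdown was compared with the control siRNA to ask which of these TFs differed in level after it. With 1 siRNA label and KLF5 still at 64.2% of its siNC1 level, the comparison cannot decide which TFs depend on KLF5. A differentially expressed gene (DEG) had an adjusted p below 0.05 in edgeR's quasi-likelihood test and an absolute log2FC above 0.75, the thresholds of the study. ZNF750 was the single DEG among the 9, and it fell. In the same direction 1.37% of all genes tested were DEGs, and 0 of the 9 were DEGs that rose in edgeR or in DESeq2, against 1.89% of all genes. On the adjusted p alone, 4 of the 9 were lower (12.9% of all genes) and 2 were higher (10.3% of all genes), and at an unadjusted p below 0.05 the counts were 4 (18.4% of all genes) and 3 (14.9% of all genes). The median log2FC of the 9 was -0.04 beside -0.01 for all genes.

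ZNF750 (chr17:82829434-82840022, minus strand) held 3.06, 3.40 and 3.39 CPM in the siNC1 libraries, from 69, 62 and 81 counts, and 1.97, 1.03 and 2.35 CPM in the siKLF5b libraries, from 43, 25 and 37 counts. All siKLF5b libraries lay below all siNC1 libraries, and replicate 2 of siKLF5b was the lowest. The log2FC was -0.93 ± 0.22 (SE, n = 3 per group; edgeR adjusted p = 0.0017), a 1.90-fold lower level. Without replicate 2 of siKLF5b the log2FC was -0.62 (edgeR adjusted p = 0.0398), short of the threshold of 0.75, so the call rests on that library. TBCD without the ZNF750 counts stood at 54.3 ± 1.75 CPM in siNC1 and 47.7 ± 0.357 CPM in siKLF5b (SD, n = 3), a smaller difference in the same direction, and TBCD as a whole had a log2FC of -0.22 (edgeR adjusted p = 0.0086). ZNF750 held 6.67 counts per kilobase of its span in siNC1, close to the 6.39 counts per kilobase of TBCD outside it, so its reads cannot be told apart from those of TBCD by their density.

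ELF3 was the next lower gene in size. Its level was 21.0, 21.3 and 20.1 CPM in siNC1 and 14.7, 12.9 and 13.5 CPM in siKLF5b, with no overlap between the groups. The log2FC of -0.60 ± 0.09 (SE, n = 3; edgeR adjusted p = 3.1e-06) passed the p but not the fold threshold. ENSG00000249007, which shares its strand and part of its span, had a log2FC of -0.66 (edgeR adjusted p = 5.3e-06), and ELF3-AS1 one of -0.15 (edgeR adjusted p = 0.144).

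FOXE1 held 106, 96.5 and 93.8 CPM in siNC1 and 79.1, 72.3 and 72.0 CPM in siKLF5b. Its log2FC was -0.41 ± 0.06 (SE, n = 3; edgeR adjusted p = 4.9e-06), and every siKLF5b library lay below every siNC1 library. TFAP2A stood at 23.9, 25.9 and 23.6 CPM in siNC1 against 18.9, 20.2 and 20.6 CPM in siKLF5b, with a log2FC of -0.30 ± 0.07 (SE, n = 3; edgeR adjusted p = 0.0023). Of the 2 overlapping antisense genes, with which reads are shared, TFAP2A-AS1 had a log2FC of -0.45 (edgeR adjusted p = 0.0231) and TFAP2A-AS2 one of -0.22 (edgeR adjusted p = 0.197). TFAP2C, the other AP-2 gene, showed 32.4, 29.1 and 27.8 CPM in siNC1 and 29.1, 28.1 and 30.1 CPM in siKLF5b, and these groups overlapped (log2FC -0.04 ± 0.08, SE, n = 3; edgeR adjusted p = 0.802).

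EHF and BNC1 were higher in siKLF5b, both by less than the fold threshold. EHF stood at 368, 324 and 348 CPM in siNC1 and at 415, 406 and 405 CPM in siKLF5b (log2FC 0.24 ± 0.05, SE, n = 3; edgeR adjusted p = 0.0011). BNC1 stood at 116, 120.0 and 122 CPM in siNC1 and at 143, 139 and 140.0 CPM in siKLF5b (log2FC 0.24 ± 0.05, SE, n = 3; edgeR adjusted p = 0.00041). The lncRNA that holds BNC1 was higher outside it as well, at 18.1 ± 0.330 CPM in siNC1 and 22.8 ± 0.675 CPM in siKLF5b (SD, n = 3), and as a whole had a log2FC of 0.25 (ENSG00000259986; edgeR adjusted p = 0.00019). The 2 ETS genes EHF and ELF3 thus lay on opposite sides of the control. PITX1 (18.8 ± 2.40 CPM in siNC1, 21.6 ± 1.95 CPM in siKLF5b; SD, n = 3) did not pass the test, with an edgeR adjusted p of 0.177, and PITX1-AS1 had a log2FC of -0.09 (edgeR adjusted p = 0.175). PRDM1 had 2.44, 2.47 and 2.43 CPM in siNC1 and 3.70, 2.79 and 4.0 CPM in siKLF5b, with a log2FC of 0.50 ± 0.20 (SE, n = 3) and an edgeR adjusted p of 0.0655, and ATG5 had a log2FC of -0.01 (edgeR adjusted p = 0.943). With 3 libraries in each group an exact two-sided permutation test of 1 gene cannot give a p below 0.1, so none is given for single genes.

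**Figure D1:**
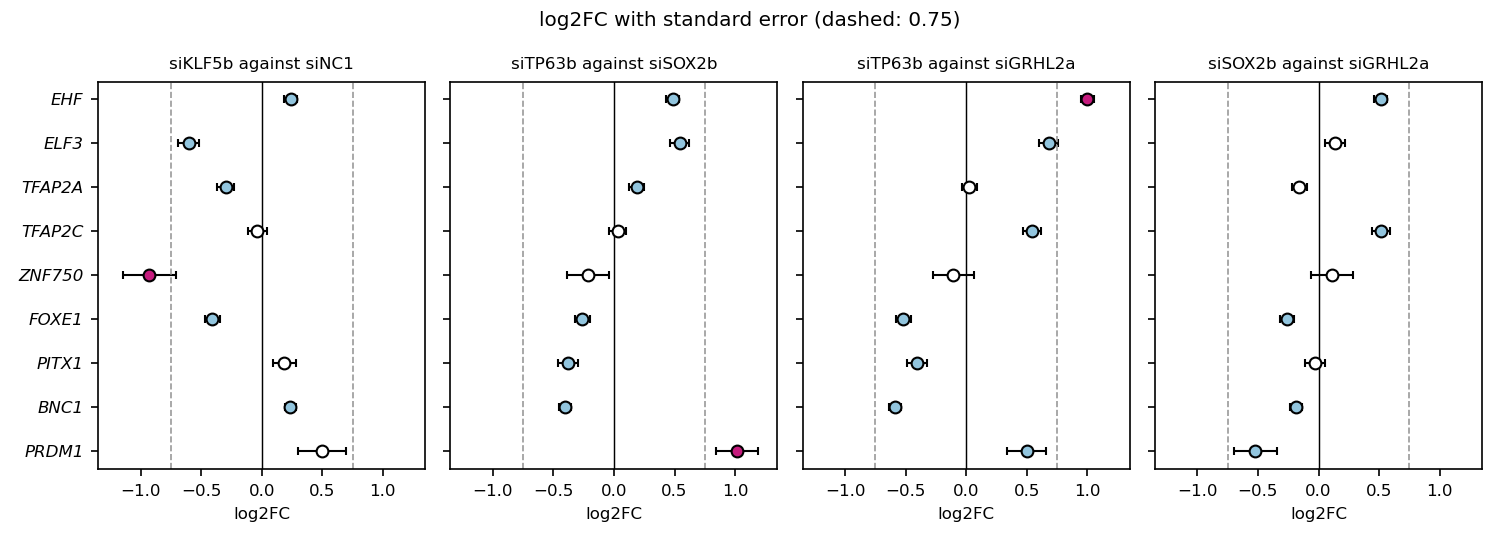
log2FC (horizontal axis) of the 9 genes in the 4 comparisons, with the SE of the fit as whiskers and dashed lines at the fold threshold; pink points are DEGs, blue points passed the adjusted p alone and white points neither. The DEGs are ZNF750 at -0.93, PRDM1 at 1.02 and EHF at 1.00.

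TP63, SOX2 and GRHL2 knockdown were compared with each other, within the second set. These comparisons share libraries, and a difference between 2 knockdowns does not say which of them moved from the control. PRDM1 was the single DEG of the 9 between siTP63b and siSOX2b, and it was higher in siTP63b (3.88% of all genes were DEGs in that direction and 2.82% in the other). On the adjusted p alone, 4 of the 9 were higher (16.4% of all genes) and 3 lower (15.4% of all genes), the same numbers as at an unadjusted p below 0.05 (20.7% and 20% of all genes). EHF was the single DEG between siTP63b and siGRHL2a, also higher in siTP63b (2.18% of all genes higher and 3.21% lower), and on the adjusted p alone 4 were higher (13.6% of all genes) and 3 lower (13.4% of all genes), again as many as at an unadjusted p below 0.05 (18.2% and 18.7% of all genes). DESeq2 called the same numbers of DEGs, 1 higher and 0 lower, in both comparisons. Between siSOX2b and siGRHL2a 0 of the 9 were DEGs in edgeR or in DESeq2, where edgeR called 1.05% of all genes higher and 2.27% lower. At an adjusted p below 0.05 alone 2 of the 9 were higher (11.8% of all genes) and 3 lower (12.7% of all genes), and at an unadjusted p below 0.05 2 were higher (16.8% of all genes) and 4 lower (18.5% of all genes). The median log2FC of the 9 lay between -0.03 and 0.03 in these 3 comparisons, beside medians from -0.02 to 0.00 for all genes.

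EHF (chr11:34621093-34663288, plus strand) was graded across the second set. It held 639, 652 and 593 CPM in the siTP63b libraries, 469, 455 and 422 CPM in those of siSOX2b and 332, 293 and 318 CPM in those of siGRHL2a, and no library of one group reached into another. The log2FC of siTP63b against siGRHL2a was 1.00 ± 0.05 (SE, n = 3; edgeR adjusted p = 2.7e-15), a 2.0-fold higher level. Against siSOX2b it was 0.49 ± 0.05 (edgeR adjusted p = 1.2e-08), and siSOX2b stood above siGRHL2a by 0.51 ± 0.05 (edgeR adjusted p = 1.0e-08), SE with n = 3 in both. The siNC1 libraries, in the other set, overlapped those of siGRHL2a.

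ELF3 followed the upper end of this order. Its level was 25, 24.4 and 27.8 CPM in the siTP63b libraries, 18.2, 17.1 and 17.7 CPM in those of siSOX2b and 16.5, 16.2 and 15.5 CPM in those of siGRHL2a. The siTP63b libraries stood above both other groups, with a log2FC of 0.54 ± 0.08 against siSOX2b and 0.68 ± 0.08 against siGRHL2a (SE, n = 3; edgeR adjusted p = 2.4e-06 and 5.1e-08). For siSOX2b and siGRHL2a the log2FC was 0.14 ± 0.08 (SE, n = 3; edgeR adjusted p = 0.235), which did not pass the test. ENSG00000249007 had log2FC values of 0.43 and 0.62 in the first 2 of these comparisons (edgeR adjusted p = 0.00045 and 3.5e-06), and reads of the shared span count for both genes. ELF3-AS1 had log2FC values of 0.08 and 0.16 there (edgeR adjusted p = 0.406 and 0.0846).

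PRDM1 (chr6:105993463-106109939, plus strand) held 4.56, 6.59 and 5.34 CPM in siTP63b, from 140, 194 and 150 counts, and 2.87, 2.30 and 3.0 CPM in siSOX2b, from 94, 76 and 68 counts. The siTP63b libraries all lay above the siSOX2b libraries. The log2FC was 1.02 ± 0.17 (SE, n = 3; edgeR adjusted p = 2.3e-05). The siGRHL2a libraries, at 3.30, 4.52 and 3.85 CPM, came between, with a log2FC of 0.50 ± 0.16 for siTP63b against them (edgeR adjusted p = 0.0216) and -0.52 ± 0.18 for siSOX2b against them (edgeR adjusted p = 0.028), SE with n = 3 in both. Of 16 alternative settings, PRDM1 passed the adjusted p in 13 for siTP63b against siGRHL2a and in only 10 for siSOX2b against siGRHL2a. ATG5, which held 1112% as many counts as PRDM1, was higher in siTP63b than in siSOX2b by a log2FC of 0.36 (edgeR adjusted p = 0.0004) and lower in siSOX2b than in siGRHL2a by 0.33 on the log2 scale (edgeR adjusted p = 0.0013). Between siTP63b and siGRHL2a its log2FC was 0.03 (edgeR adjusted p = 0.835).

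FOXE1 and BNC1 had their lowest levels in siTP63b. FOXE1 held 54.2, 55.3 and 61.3 CPM in the siTP63b libraries, 65.4, 67.4 and 72.1 CPM in those of siSOX2b and 79.1, 84.8 and 80.7 CPM in those of siGRHL2a. Its log2FC was -0.26 ± 0.06 for siTP63b against siSOX2b, -0.52 ± 0.06 for siTP63b against siGRHL2a and -0.26 ± 0.06 for siSOX2b against siGRHL2a (SE, n = 3; edgeR adjusted p = 0.0011, 4.0e-08 and 0.0015). The order of the 3 groups was the reverse of that of EHF.

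BNC1 (chr15:83255884-83284664, minus strand) held 57.1, 58.3 and 63.2 CPM in the siTP63b libraries, 80.3, 76.8 and 79.1 CPM in those of siSOX2b and 90.5, 91.4 and 87.0 CPM in those of siGRHL2a, with no overlap between groups. Its log2FC was -0.40 ± 0.05 for siTP63b against siSOX2b, -0.59 ± 0.05 for siTP63b against siGRHL2a and -0.19 ± 0.05 for siSOX2b against siGRHL2a (SE, n = 3; edgeR adjusted p = 1.3e-07, 5.8e-11 and 0.0046). The lncRNA that holds it exceeded its counts by only 308 to 574 counts in a library. Outside BNC1 that lncRNA stood at 15 ± 0.739 CPM (SD, n = 3) in siTP63b, at 12.8 ± 1.43 CPM in siGRHL2a and at 13.0 ± 1.31 CPM in siSOX2b, an order unlike that of BNC1.

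The AP-2 genes differed from each other. TFAP2C held 29.7, 32.3 and 31.1 CPM in the siTP63b libraries, 29.9, 32.8 and 28.3 CPM in those of siSOX2b and 20.6, 22.0 and 21.1 CPM in those of siGRHL2a, so that siGRHL2a stood below both. The log2FC against siGRHL2a was 0.55 ± 0.07 for siTP63b and 0.52 ± 0.07 for siSOX2b (SE, n = 3; edgeR adjusted p = 8.7e-07 and 3.4e-06), and siTP63b against siSOX2b gave 0.03 ± 0.07 (edgeR adjusted p = 0.802, n = 3). TFAP2A was at 50.4 ± 1.89 CPM (SD, n = 3) in siTP63b, at 49.4 ± 2.25 CPM in siGRHL2a and at 44.2 ± 1.16 CPM in siSOX2b. Only siTP63b against siSOX2b passed the adjusted p for it, with a log2FC of 0.19 ± 0.06 (SE, n = 3; edgeR adjusted p = 0.0208). In that comparison TFAP2A-AS1 had a log2FC of 0.19 (edgeR adjusted p = 0.183) and TFAP2A-AS2 one of 0.13 (edgeR adjusted p = 0.338).

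PITX1 was lower in siTP63b than in both other knockdowns. It held 32, 29.5 and 36.8 CPM in the siTP63b libraries, 43.0, 39.9 and 44.9 CPM in those of siSOX2b and 39.9, 45.4 and 44.7 CPM in those of siGRHL2a. The log2FC was -0.38 ± 0.08 against siSOX2b and -0.41 ± 0.08 against siGRHL2a (SE, n = 3; edgeR adjusted p = 0.00077 and 0.0004), while siSOX2b and siGRHL2a overlapped. PITX1-AS1 went the other way, with log2FC values of 0.16 and 0.13 in those comparisons (edgeR adjusted p = 0.0099 and 0.0292). ZNF750 held 3.98 ± 0.247 CPM (SD, n = 3) in siTP63b, 4.28 ± 0.496 CPM in siGRHL2a and 4.6 ± 0.639 CPM in siSOX2b, and these overlapping groups gave edgeR adjusted p values from 0.37 to 0.704. TBCD without the ZNF750 counts was at 82.3 ± 6.88, 79.5 ± 2.11 and 85.3 ± 4.66 CPM in siTP63b, siGRHL2a and siSOX2b (SD, n = 3).

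**Figure D2:**
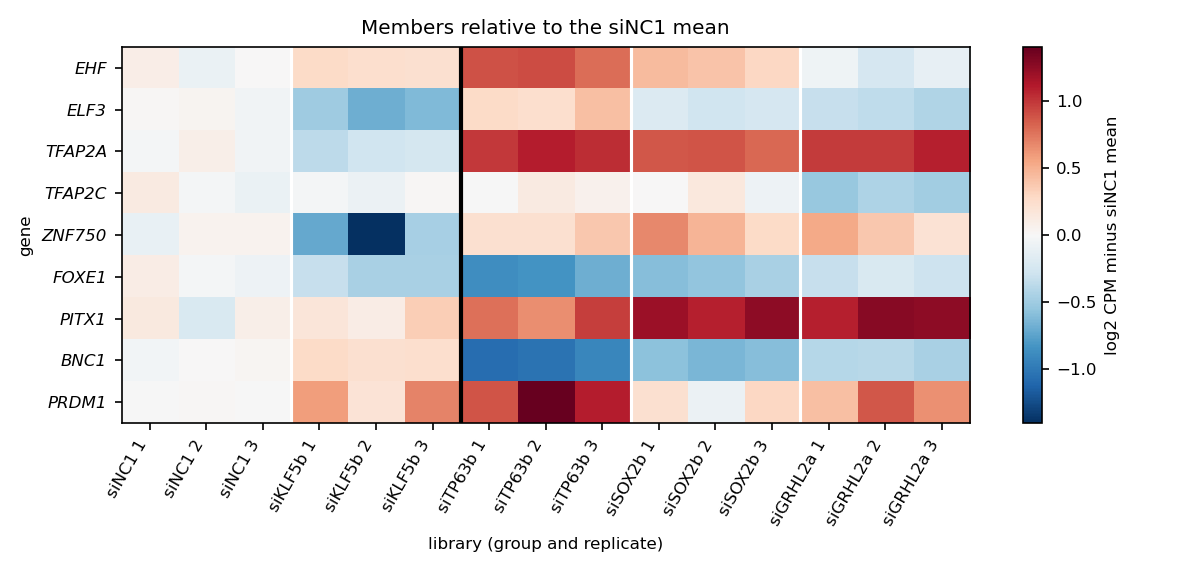
log2 CPM of the 9 genes (rows) in the 15 libraries (columns) minus the mean of the siNC1 libraries, in colour from blue (lower) to red (higher); the black line separates the 2 sets of columns, across which the set and the knockdown cannot be told apart. TFAP2A and PITX1 are higher than siNC1 in all 9 libraries of the second set, and BNC1 and FOXE1 are lower in all 9.

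Across all 5 groups, the ratio of the highest to the lowest group mean ran from 1.46 for TFAP2C to 2.58 for ZNF750. TFAP2A and PITX1 were higher in all 3 groups of the second set than in siNC1, with log2 ratios from 0.86 to 1.04 for TFAP2A and from 0.79 to 1.20 for PITX1. BNC1 and FOXE1 were lower in all 3, with log2 ratios from -1.0 to -0.41 for BNC1 and from -0.80 to -0.28 for FOXE1. The second set was shared by these groups, so such ratios are levels and not calls. EHF in siGRHL2a, TFAP2C in siTP63b and siSOX2b, and PRDM1 in siSOX2b overlapped siNC1.

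Among neighbours in the order of the 5 group means, the ranges of the libraries overlapped for siNC1 and siGRHL2a in EHF, for siTP63b and siGRHL2a in TFAP2A, and for siKLF5b and siSOX2b in FOXE1. They did not overlap between any neighbours in ELF3 or BNC1. In ELF3 the order ran from siTP63b through siNC1, siSOX2b and siGRHL2a to siKLF5b, and in BNC1 from siKLF5b through siNC1, siGRHL2a and siSOX2b to siTP63b. In PRDM1 the lowest siTP63b library (4.56 CPM) lay just above the highest siGRHL2a library (4.52 CPM), and the 4 lower groups overlapped their neighbours. In TFAP2C the 4 upper groups overlapped and siGRHL2a stood below them, and in ZNF750 the 3 groups of the second set overlapped. In PITX1 the pairs siGRHL2a with siSOX2b and siKLF5b with siNC1 overlapped.

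After the mean of each set was subtracted, 15 libraries gave a Pearson r of 0.82 between EHF and TFAP2C and 0.81 between PITX1 and BNC1. ELF3 with BNC1 gave -0.89 and EHF with FOXE1 gave -0.87. These values describe 5 groups of libraries and not 15 independent points. Over the tested genes with at least 5 CPM, the genes most like EHF were CCDC82 (0.98) and CDC14B (0.97), and those most like FOXE1 were MYLK (0.97) and SLC2A1 (0.96). ACBD5 (0.95) and NR2F6 (0.95) were most like TFAP2C, PPME1 (0.92) and P4HA3 (0.91) most like TFAP2A, and SLC7A8 (0.91) and DPYSL3 (0.91) most like PITX1. For BNC1 and ELF3 the first was the overlapping lncRNA, ENSG00000259986 (0.99) and ENSG00000249007 (0.98), with which reads are shared, followed by NPR3 (0.97) and CYP4F3 (0.98). PRDM1 was most like DTWD2 (0.92) and PLSCR4 (0.92), and ZNF750 most like BMP6 (0.88) and IGSF9B (0.87).

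RefSeq start-site windows of GRCh38.p14, from 250 bases before to 50 bases after a start, were at hand for 7 of the 9 genes, 11 windows in all, and were searched on both strands for motifs of the knocked-down TFs and of the AP-2 and ETS families. No window was at hand for TFAP2C or for the DEG ZNF750. The GRHL motif AACNNGTT was in 0 of the 11 windows and in 3.52% of all 35116 windows. The SOX motif ACAANG was in 3 (35.5% of all), the KLF motif GGGNGTGG in 3 (17.2%), the AP-2 motif GCCNNNGGC in 4 (23.2%) and the ETS motif CCGGAAG in 0 (10.3%). A loose p53-family double half-site was in 9, but 74.0% of all windows hold it. A match is a match of letters and not a bound site. For the DEGs EHF and PRDM1 and for BNC1, 1 of 2 windows each is shown, up to the start site or to the first annotated exon inside the window. Those of EHF and PRDM1 lie inside the span of the gene, before an internal start, and that of BNC1 lies just before the gene. BNC1 is shown as a gene whose order across the second set was the reverse of that of EHF. Matches to the SOX, KLF and AP-2 motifs are in capitals. The stretch of EHF holds 1 SOX match, that of PRDM1 1 AP-2 and 1 KLF match, and that of BNC1 1 AP-2 match, on either strand. In full, these windows hold 2 SOX matches in EHF and 1 in PRDM1. The windows not shown hold 1 SOX match after the start in EHF, 1 AP-2 and 1 KLF match in PRDM1 and 2 AP-2 matches in BNC1.
EHF, chr11:34632316-34632463, plus strand: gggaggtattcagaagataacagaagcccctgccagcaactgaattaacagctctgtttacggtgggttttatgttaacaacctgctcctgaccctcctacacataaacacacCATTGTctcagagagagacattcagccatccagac
PRDM1, chr6:106086086-106086319, plus strand: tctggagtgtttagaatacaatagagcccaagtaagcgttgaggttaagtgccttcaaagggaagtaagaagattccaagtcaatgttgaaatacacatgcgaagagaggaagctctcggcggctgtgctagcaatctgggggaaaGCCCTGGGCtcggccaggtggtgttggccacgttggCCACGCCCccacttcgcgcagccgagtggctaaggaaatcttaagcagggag
BNC1, chr15:83284665-83284914, minus strand: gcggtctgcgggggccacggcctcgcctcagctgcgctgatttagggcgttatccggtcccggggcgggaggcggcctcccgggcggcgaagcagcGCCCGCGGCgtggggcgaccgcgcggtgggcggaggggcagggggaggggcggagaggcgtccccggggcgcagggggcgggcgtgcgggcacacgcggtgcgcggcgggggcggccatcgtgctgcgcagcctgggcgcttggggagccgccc

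The genes around the 9 TFs were described by lists. Of 10 close relatives in the same DNA-binding families, 4 were tested. ELF5, an ETS factor of glandular epithelium, was the single DEG of the 4, in siTP63b against siGRHL2a alone (2.18% of all genes higher and 3.21% lower). It was higher by a log2FC of 1.41 ± 0.45 (SE, n = 3; edgeR adjusted p = 0.0181), at 0.832 against 0.310 CPM. All 16 listed cofactors of the AP-2 proteins, ZNF750 and PRDM1 were tested. In siKLF5b against siNC1 edgeR called 0 of them (1.37% of all genes lower and 1.89% higher). At an unadjusted p below 0.05, 6 were lower and 3 higher there (18.4% and 14.9% of all genes). In siSOX2b against siGRHL2a edgeR also called 0 (2.27% of all genes lower and 1.05% higher). At an unadjusted p below 0.05, 3 were lower and 6 higher there (18.5% and 16.8% of all genes). In siTP63b against siSOX2b edgeR called 0 of the 16 lower and 1 higher (2.82% and 3.88% of all genes). At an unadjusted p below 0.05, 6 were lower and 3 higher there (20% and 20.7% of all genes). In siTP63b against siGRHL2a edgeR also called 0 lower and 1 higher (3.21% and 2.18% of all genes). At that unadjusted p, 3 were lower and 4 higher there (18.7% and 18.2% of all genes). TLE4, a Groucho-type corepressor that acts with PRDM1, was the single DEG of the 16 in both comparisons of siTP63b. It stood at 77.7 CPM there, 18.5 CPM in siSOX2b and 24.0 CPM in siGRHL2a, with a log2FC of 2.07 ± 0.08 and 1.69 ± 0.07 (SE, n = 3; edgeR adjusted p = 3.8e-19 and 2.4e-17). PRDM1 was higher in siTP63b in the same comparisons, as a DEG in the first and by the adjusted p alone in the second.

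Of 34 other regulators of squamous epithelium tested, 3 were lower and 0 higher in siKLF5b against siNC1 (1.37% and 1.89% of all genes). At an unadjusted p below 0.05 in edgeR 15 were lower and 5 higher (18.4% and 14.9% of all genes). The lower DEGs were the AP-1 genes FOSL2 (log2FC -0.88) and FOSL1 (-0.84) and the forkhead gene FOXN1. FOXN1 had a log2FC of -1.68 ± 0.54 (SE, n = 3) at a low level, 0.203 against 0.632 CPM. In siTP63b against siSOX2b 2 were lower and 5 higher (2.82% and 3.88% of all genes). They included TP63 (-0.93) and SOX2 (1.73), each the target of one of the siRNAs, and CEBPB (1.02) and BARX2 (0.96). The leucine-zipper gene MAF was lower with a log2FC of -2.40 ± 0.53 (SE, n = 3), at only 0.115 against 0.630 CPM. In siTP63b against siGRHL2a 4 were lower and 4 higher (3.21% and 2.18% of all genes). On the lower side TP63 (-1.19), its relative TP73 (-0.98) and MAF led. For MAF the log2FC was -3.59 ± 0.47 (SE, n = 3), at 0.115 against 1.42 CPM. On the higher side BARX2 (1.01), FOSL1 (0.87) and DLX5 (1.59) led. In siSOX2b against siGRHL2a 3 were lower, among them SOX2 (-1.18) and MAF (-1.19, at 0.630 against 1.42 CPM), and FOSL1 was higher (1.13). Of all genes 2.27% were lower and 1.05% higher there. The medians of this list were -0.20, 0.02, 0.07 and -0.02 in the 4 comparisons, beside -0.01, 0.00, -0.01 and -0.02 for all genes.

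ZNF750 and PRDM1 are known to act on genes of epidermal differentiation, of which 31 of 37 were tested. The part of either TF in the levels of these genes was not tested. In siKLF5b against siNC1, where the call of ZNF750 rested on 1 library, 8 of the 31 were lower and 0 higher (1.37% and 1.89% of all genes). At an unadjusted p below 0.05 in edgeR 11 were lower and 3 higher (18.4% and 14.9% of all genes). The median log2FC was -0.41 beside -0.01 for all genes. Of the DEGs, those with the smallest adjusted p were KRT80 (log2FC -1.19), the mucosal keratin KRT13 (-0.93) and PPL (-0.80), which encodes the cornified envelope protein periplakin. In siTP63b against siSOX2b 2 were lower, CALML3 (-1.36) and KRT78 (-1.94, at 1.15 against 4.32 CPM). SCEL, the gene of the envelope precursor sciellin, was higher (0.91). Of all genes 2.82% were lower and 3.88% higher, and the median of the list was -0.37 beside 0.00 for all genes. At an unadjusted p below 0.05 in edgeR 13 of the list were lower and 6 higher (20% and 20.7% of all genes). In siTP63b against siGRHL2a 6 were lower and 2 higher (3.21% and 2.18% of all genes). Among them were CALML3 (-1.19), SPRR3 (-0.83) and KRT78 (-2.50) on the lower side and CLDN4 (1.14) and SCEL (0.96) on the higher side. At an unadjusted p below 0.05 in edgeR 11 were lower and 7 higher (18.7% and 18.2% of all genes). The median was -0.16 beside -0.01 for all genes. In siSOX2b against siGRHL2a KRT1 was lower (-1.81 ± 0.59, SE, n = 3), at 0.284 against 1.08 CPM. SPRR1A was higher there (1.13), at 1.71 against 0.781 CPM, beside 2.27% of all genes lower and 1.05% higher. At an unadjusted p below 0.05 in edgeR 4 were lower and 7 higher (18.5% and 16.8% of all genes). The median was -0.001 beside -0.02 for all genes.

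BNC1 is a gene of basal keratinocytes, and 18 other basal genes were tested. The part of BNC1 in the levels of these genes was not tested. In siTP63b, where BNC1 had its lowest level, 4 were lower and 1 higher against siSOX2b (2.82% and 3.88% of all genes). Against siGRHL2a 5 were lower and 0 higher (3.21% and 2.18% of all genes). At an unadjusted p below 0.05 in edgeR 16 were lower and 0 higher against siGRHL2a (18.7% and 18.2% of all genes). The median log2FC values were -0.34 and -0.59, beside 0.00 and -0.01 for all genes. Against siSOX2b the neurotrophin receptor gene NGFR (-1.73), the integrin gene ITGA6 (-0.95) and KRT14 (-1.17) led and KRT15 was higher (0.77), and against siGRHL2a ITGA6 (-1.06), KRT14 (-1.53) and the laminin gene LAMB3 (-0.98) led. In siKLF5b against siNC1, where BNC1 was higher, KRT14 (-1.26) and NGFR (-0.75) were lower and KRT15 was higher (0.84), beside 1.37% and 1.89% of all genes. At an unadjusted p below 0.05 in edgeR 14 were lower and 3 higher (18.4% and 14.9% of all genes), and the median was -0.32. In siTP63b against siSOX2b, where BNC1 was lower, the median was -0.34. There 13 were lower and 2 higher at that p (20% and 20.7% of all genes). In siSOX2b against siGRHL2a KRT15 alone was called (-1.01), beside 2.27% of all genes lower and 1.05% higher. At an unadjusted p below 0.05 in edgeR 13 were lower and 1 higher in that comparison (18.5% and 16.8% of all genes). The median there was -0.15 beside -0.02 for all genes.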

How the data were processed

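RNA-seq of HCC95 cells was analysed from the table of raw counts per gene that the authors deposited. The authors aligned reads with HISAT2 2.2.1 to hg38 and counted uniquely aligned reads over gene regions with featureCounts 2.0.1 on Gencode annotation. The strand setting, and whether reads or fragments were counted, are not given in the sources used here. GEO's labels name the molecule as genomic DNA, against the RNA protocol beside them. Samples were grouped by their titles, and no count column lacked a sample.

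From these counts, edgeR 4.0.16 (R 4.3.3) was fitted to all 15 libraries with TMM factors and filterByExpr by group. Its quasi-likelihood test was adjusted by Benjamini-Hochberg over 25108 genes in each comparison. Counts were simulated for siKLF5b against siNC1 in 24519 genes, with 200 genes changed by a log2FC of 1.5. All 200 were called, and 2 unchanged genes as well. That change was larger in size than the log2FC of the DEGs ZNF750 (-0.93), PRDM1 (1.02) and EHF (1.00). How often changes of their size would be called was not tested, nor how often changes at levels as low as those of ZNF750 and PRDM1 would be. CPM used the full library totals times the TMM factors, and likeness used log2 CPM.

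Alternatives were RLE and upper-quartile scaling, other filters, DESeq2 1.42.0, other thresholds, a replicate block, halved counts in the second set, and leaving out libraries. Exon lengths and overlaps came from Gencode v44 of the same build, in which the spans of the 9 genes are the same.

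Named genes were the 9 members, up to 3 genes in each direction for each list and comparison with the smallest adjusted p among DEGs, the 2 genes most correlated with each member, the targeted genes and genes overlapping a member. The members and lists were chosen with earlier results of these data known. Some genes that this rule names are not reported here.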

Additional observations from a re-analysis of the deposited data

How the results depend on the processing

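Over all 36 pairs of a gene of the 9 and a comparison, the alternatives gave 612 values, of which 579 kept both direction and side of the thresholds, 22 gained and 5 lost a call, and 6 changed sign. The 22 gains all came from dropping the fold threshold, which by definition calls every pair past the adjusted p. The sign changes came only from leaving out 1 library, where the log2FC was near 0. TFAP2C ranged from -0.091 to 0.026 in siKLF5b against siNC1, with 0.026 without siNC1 replicate 1, and from -0.022 to 0.089 in siTP63b against siSOX2b. PITX1 ranged from -0.077 to 0.027 in siSOX2b against siGRHL2a. Leaving out libraries gave 0 to 1 lower DEGs of the 9 in siKLF5b against siNC1, the 0 being without siKLF5b replicate 2. Without a fold threshold the lower and higher counts were 4 and 2, 3 and 4, 3 and 4, and 3 and 2 in the 4 comparisons in the order of the report, and 5827, 7972, 6791 and 6151 of all genes were called. With an absolute log2FC above 1, ZNF750 and EHF were lost (0 lower in siKLF5b against siNC1 and 0 higher in siTP63b against siGRHL2a), and 369, 1005, 826 and 485 of all genes were called. Tested against a fold of 0.75 (glmTreat), ZNF750 and PRDM1 were lost (0 lower and 0 higher in their comparisons), and 61, 312, 285 and 59 of all genes were called. With at least 10 counts in every library, 1090, 897 and 514 genes were called in the 3 comparisons of the second set, where fewer genes were tested. The cause of the other changes was not tested. Same-numbered replicates did not deviate together (correlations from -0.03 to 0.03), so the numbers do not pair the libraries. With the replicate block, 1 lower and 0 higher of the 9 were called in siKLF5b against siNC1, and no call among the 9 changed. ZNF750 and PRDM1, with 25 to 194 counts in a library, are the least precise of the 9.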
